A study of Mus musculus with 6 samples.

Results

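The loci described here belong to 10 collagen genes that lie outside the classical fibril-forming chains. They code for chains of fibril-associated collagens with interrupted triple helices, called FACIT (Col12a1, Col14a1, Col16a1, Col19a1, Col22a1), of network-forming collagens (Col8a1, Col8a2, Col10a1) and of transmembrane collagens (Col13a1, Col23a1). All ATAC-seq peaks of any annotation that carry one of these 10 gene symbols in the authors' deposited table were taken, which gave 292 of its 214414 peaks. ATAC-seq uses a transposase that cuts and tags open DNA, so a peak marks accessible chromatin. The material was organoids, tumour cells grown as 3-dimensional cultures, of mouse non-small cell lung cancer. Of the 6 libraries, 3 were labelled as sensitive to immunotherapy and 3 as resistant, and their comparison asks how accessible chromatin differs between these states. The labels describe the cells as NSCLC and name no mouse strain, tumour genotype, treatment, clone or passage for either group.

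Collagens are matrix proteins whose chains wind into triple helices. FACIT molecules do not build fibrils of their own but sit on the surface of fibrils and link them to other matrix components, collagens VIII and X assemble into lattices, and transmembrane collagens are anchored in the cell membrane and can be shed from it. Collagen X is best known from hypertrophic cartilage and collagen VIII from vessel walls and the basement membrane of the cornea.

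The authors' deposited table gives for each peak a mean normalized count over all 6 libraries, a log2 fold change between the groups with its standard error (SE), and a DESeq2 p-value. Positive values are read as more signal in resistant organoids, an order of groups taken from that table's title. Peaks are tested here when the table gives an adjusted p (Benjamini-Hochberg), and called at an adjusted p under 0.05. Values per library, and with them the depth of each library, were not analysed here, because the names of the 6 columns match no sample label. The precision is therefore that of the deposited errors, which ran from 0.17 to 0.48 on the log2 scale over the tested collagen peaks. Nothing in the labels tells separate cultures from repeat libraries of 1 culture, so the p-values reflect library-to-library spread that can be technical. Whether each group came from 1 line or several is not stated either. A difference between the groups therefore cannot be told apart from a difference between lines. In bulk libraries, fewer cells of a type and less open chromatin per cell cannot be told apart.

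The collagen peaks that differed between the groups went both ways. Of the 153 tested collagen peaks, 7 were higher (4.58%) and 5 lower (3.27%) in resistant organoids by the authors' deposited table. Over all 102173 tested peaks of the table, 5.02% were higher and 7.34% lower, 12.4% in all, against 7.84% of the collagen peaks. On chromosome 15, which held 96 of the tested collagen peaks, 2.08% of these were higher and 4.17% lower. Of all tested peaks of that chromosome, 1.12% were higher and 3.31% lower. Of the 57 tested collagen peaks on other chromosomes, 8.77% were higher and 1.75% lower, beside the 5.02% and 7.34% of the whole table. With a minimum mean count of 50, 5 of 18 collagen peaks were higher and 4 lower, against 8.34% higher and 26.1% lower of all such peaks. With the trend of fold change over mean count subtracted, 9 collagen peaks were higher and 2 lower, and of all tested peaks 6.28% were higher and 4.71% lower. The 2 higher peaks added by this subtraction lie near the RefSeq start of Col12a1 and inside the Col22a1 gene. The 7 higher peaks belonged to Col22a1 (2 peaks), Col16a1 (2 peaks), Col12a1, Col19a1 and Col8a2. Of the 5 lower ones, 4 belonged to Col14a1 and 1 to Col23a1. No gene had called peaks in both directions, and Col8a1, Col10a1 and Col13a1 had none. At an unadjusted p under 0.05, 17 of the 153 tested collagen peaks passed, against 24014 of all 102173 tested peaks. The called peak closest to the threshold had an adjusted p of 0.0461 in the authors' deposited table, and the next one beyond it 0.102.

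**Figure D1:**
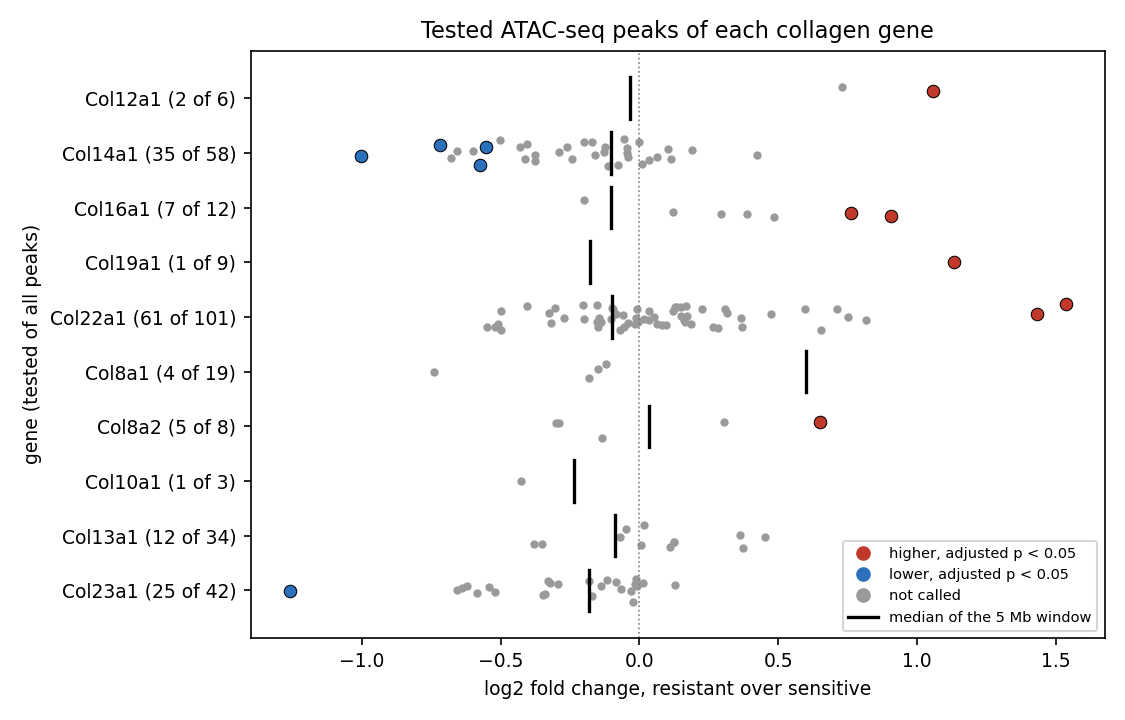
Log2 fold change (resistant over sensitive) of the 153 tested peaks, 1 point per peak, by gene; red and blue points are called higher and lower, grey points are not called, and the black bar is the median of all tested peaks in the surrounding 5 Mb windows. The 7 higher peaks come from 5 genes, 4 of the 5 lower peaks from Col14a1, and the black bar of Col8a1 stands apart at 0.60.

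The peaks were spread unevenly over the genes. Col22a1 alone held 101 of the 292 peaks and Col14a1 58, so that 54.5% of them lay on chromosome 15, which held 7.81% of all peaks of the table. Col13a1 had 34, Col23a1 42, Col8a1 19, Col16a1 12, Col19a1 9, Col8a2 8, Col12a1 6 and Col10a1 3. Introns took a larger share than in the table as a whole, 53.1% against 30.5%, and intergenic sites a smaller one, 15.4% against 36.9%. Promoter peaks, which the deposited annotation places within 3 kb of the start of any transcript, made up 14.0% against 19.8%. Signal was close to that of other peaks, with a median of 12.1 normalized counts per kb over tested collagen peaks and 12.7 over all tested peaks. The remaining 139 collagen peaks had no adjusted p, with mean counts below 14.7. The median log2 fold change of the tested collagen peaks in the authors' deposited table was -0.06, with quartiles of -0.29 and 0.13, and that of all tested peaks was -0.07, with quartiles of -0.40 and 0.29. All tested peaks of chromosome 15 had a median of -0.07 and quartiles of -0.27 and 0.13 there.

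At the gene starts, Col16a1 was the one gene with a called peak over the outermost start that RefSeq annotates. A peak covered that start in 4 genes, Col8a1, Col14a1, Col16a1 and Col23a1. For Col16a1 the covering peak was higher in resistant organoids, with a log2 fold change of 0.91 ± 0.26 (SE) and an adjusted p of 0.00738 in the authors' deposited table. The covering peaks of Col8a1 (-0.15 ± 0.32), Col14a1 (-0.50 ± 0.25) and Col23a1 (-0.01 ± 0.39) were not called in the authors' deposited table. In the other 6 genes the nearest peak lay 0.5 to 2.7 kb from the RefSeq start. Of these nearest peaks none was called, and the one with the smallest p, 1.0 kb into Col12a1, had a log2 fold change of 0.73 ± 0.30, with p = 0.0165 and an adjusted p of 0.102 from DESeq2 in the authors' deposited table. Counting promoters of any transcript, 3 of 22 tested promoter peaks were higher (in Col8a2, Col12a1 and Col16a1) and 0 were lower, with 5 at an unadjusted p under 0.05 in the authors' DESeq2 comparison. Of all 28815 promoter peaks tested, 3.8% were higher and 10.2% lower, and 7414 had an unadjusted p under 0.05. When each gene was represented by its promoter peak with the highest mean count, 1 of 8 tested genes was called, Col8a2, against 17.5% of the 15490 genes of the whole table, 3.58% higher and 13.9% lower.

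**Figure D2:**
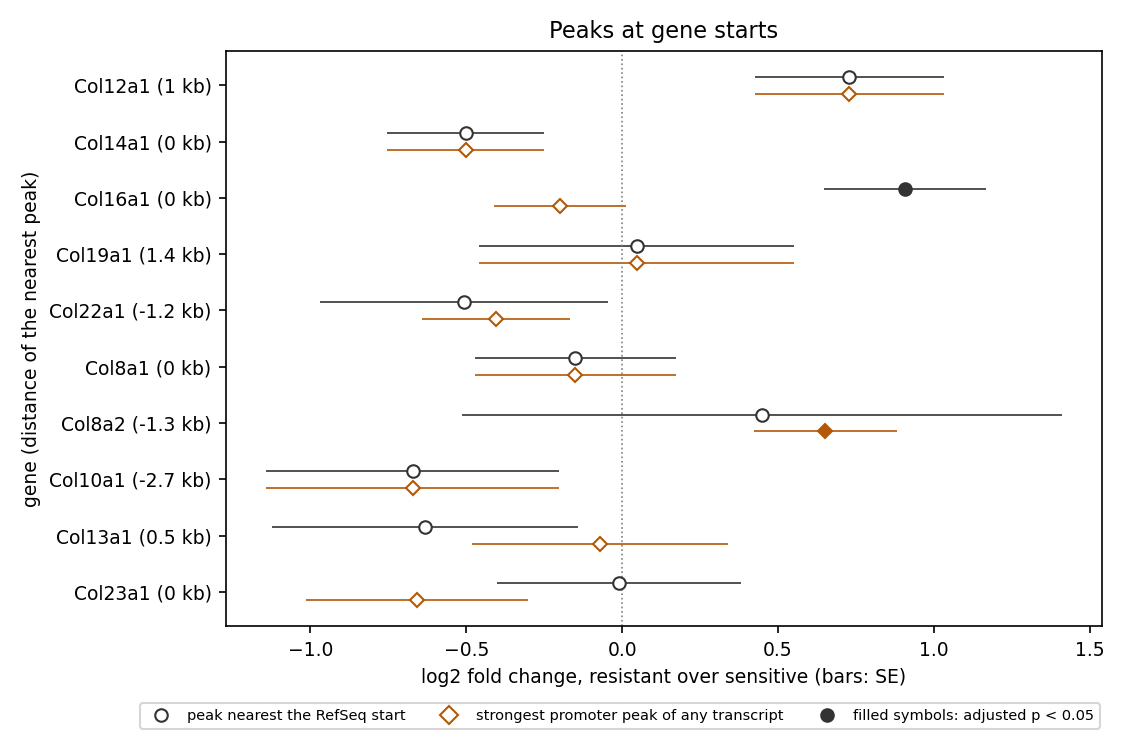
Log2 fold change (resistant over sensitive, bars SE) of the peak nearest the outermost RefSeq start (circles) and of the promoter peak with the highest mean count (diamonds) of each gene, with the distance of the former beside the gene name and filled symbols for an adjusted p under 0.05. The filled circle of Col16a1 at 0.91 and its open diamond at -0.20 are different peaks of that gene.

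RefSeq (GRCm38.p6, the same build as mm10) gives promoter windows for 7 of the 10 genes, from 250 bases before to 50 after the start. The bases upstream of the outermost start are given for 3 of them, because they show a start under a called peak (Col16a1), a start under a peak that was not called (Col8a1) and a start that no peak covers (Col8a2). All read 5′ to 3′ in the direction of transcription, with GGGCGG (the GC box that Sp1 family factors bind), CCAAT and TGTGGT in capitals, whichever strand carries them.
Col16a1, chr4:130047590-130047816, plus strand: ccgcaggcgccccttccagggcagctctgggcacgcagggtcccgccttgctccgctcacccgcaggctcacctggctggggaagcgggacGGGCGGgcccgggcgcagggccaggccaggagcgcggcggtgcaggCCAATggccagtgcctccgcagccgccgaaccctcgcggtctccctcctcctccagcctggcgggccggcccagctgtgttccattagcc
Col8a1, chr16:57754738-57754987, minus strand: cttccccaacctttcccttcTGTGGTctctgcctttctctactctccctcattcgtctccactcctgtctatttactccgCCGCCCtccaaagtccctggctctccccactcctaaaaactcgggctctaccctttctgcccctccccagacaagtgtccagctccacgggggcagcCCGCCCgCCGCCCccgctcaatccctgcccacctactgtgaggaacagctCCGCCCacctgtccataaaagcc
Col8a2, chr4:126286544-126286793, plus strand: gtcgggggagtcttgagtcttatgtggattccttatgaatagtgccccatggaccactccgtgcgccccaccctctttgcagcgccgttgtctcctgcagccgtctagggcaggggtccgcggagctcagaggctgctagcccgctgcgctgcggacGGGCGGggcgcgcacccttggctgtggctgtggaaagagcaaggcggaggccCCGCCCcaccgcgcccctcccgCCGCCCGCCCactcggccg

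These stretches were rich in G and C, at 75.8% for Col16a1, 60.8% for Col8a1 and 70.0% for Col8a2, against a median of 52.7% over the 32851 RefSeq promoter windows of the mouse. Over the full windows, GGGCGG was found on either strand in 4 of the 7 genes (Col16a1, Col23a1, Col8a1 and Col8a2) and in 35.7% of all windows. The Col8a1 and Col8a2 stretches hold 4 copies each, of which the last 2 in Col8a2 overlap. CCAAT was found in Col16a1 alone among the 7, and in 37.4% of all windows. TGTGGT, a motif of RUNX factors, was found in Col8a1 alone and in 16.8% of all windows. TATAAA, the TATA box, was present in Col10a1 and Col13a1 and in 13.6% of all windows, and CANNTG, the E-box, in 5 of the 7 and in 72.3%. TGANTCA, the AP-1 motif (7.81% of all windows), and GGAATG, the TEAD motif (14.7%), were found in none of the 7. Such matches describe letters and not occupied sites, and the start without a peak (Col8a2) held as many GGGCGG copies as the covered start of Col8a1.

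Among the FACIT genes, Col22a1 and Col14a1, both on chromosome 15, had called peaks in opposite directions, Col16a1 and Col12a1 had higher peaks, and Col19a1 rested on a single tested peak. In all, the authors' deposited table called 6 of 106 tested FACIT peaks higher (5.66%) and 4 lower (3.77%). Of all tested peaks, 5.02% were higher and 7.34% lower, and of those on chromosome 15, 1.12% and 3.31%.

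Col22a1 codes for a chain of collagen XXII, a FACIT known from tissue junctions such as that of muscle and tendon. Its 2 called peaks had the largest increases of the 153 tested collagen peaks, and both lie upstream of the gene rather than in it. The peak at chromosome 15, 72205550 to 72210630 (mm10), 54.6 kb upstream of the RefSeq start, had a mean count of 124, a log2 fold change of 1.43 ± 0.19 (SE) and an adjusted p of 3.32e-11 in the authors' deposited table, which is 2.70-fold higher in resistant organoids. The peak at chromosome 15, 72216150 to 72219680, 65.2 kb upstream, had a mean count of 64.4, a log2 fold change of 1.54 ± 0.26 (SE) and an adjusted p of 2.35e-07 there, or 2.90-fold higher. The deposited annotation places both in intron 2 of a transcript without a gene symbol. They are 5.5 kb apart, and the weak peak between them was not called (0.65 ± 0.43 in the authors' deposited table). The adjoining peak 0.2 kb from the first was at -0.10 ± 0.28 in the authors' deposited table. The next protein-coding gene on that side is Kcnk9, a potassium channel gene, 291 and 282 kb away. Of its 45 tested peaks, 0 were higher and 2 lower there. Within the Col22a1 gene itself 0 peaks were called by DESeq2 and 2 had an unadjusted p under 0.05, at 0.82 ± 0.37 and 0.71 ± 0.33 in the authors' deposited table. With the mean count trend subtracted, a further peak inside the gene, at 0.37 ± 0.19 in the authors' deposited table, was called higher. The other 59 tested Col22a1 peaks ran from -0.55 to 0.82 in the authors' deposited table, and the promoter peak with the highest mean count, 113.0 kb into the gene, was at -0.40 ± 0.24 (adjusted p = 0.302 by DESeq2).

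Col14a1 codes for the chain of collagen XIV, a FACIT that binds fibrils through the proteoglycan decorin. Its 4 called peaks were lower in resistant organoids, and 3 of them lie upstream of the gene, between it and Deptor, the gene of an inhibitor of mTOR signalling, or inside Deptor. The peak at chromosome 15, 55275890 to 55284210, 23.4 kb upstream, had the highest mean count of all 292 peaks (149) and a log2 fold change of -0.55 ± 0.17 (SE), with an adjusted p of 0.0157 in the authors' deposited table. A peak 36.4 kb upstream (mean count 135) was at -0.57 ± 0.18 (adjusted p = 0.0158 by DESeq2) and one 59.6 kb upstream, inside the last intron of Deptor, at -0.72 ± 0.22 (adjusted p = 0.0141) in the authors' deposited table. The fourth, 49.0 kb into the gene in intron 5, fell by 1.00 on the log2 scale (SE 0.31, adjusted p = 0.0159 by DESeq2) in the authors' deposited table. Weaker tested peaks between the 3 upstream ones were at -0.04 ± 0.36 and 0.01 ± 0.36 in the authors' deposited table. Of 18 tested Deptor peaks 3 were lower and 0 higher, where 3.31% of all tested peaks on chromosome 15 were lower and 1.12% higher. Values above 0 were found in 7 of 35 tested Col14a1 peaks, against 40.4% of those on chromosome 15 and 44.5% of all, and the median of the gene was -0.17 beside -0.10 for its window. The start peak did not pass (-0.50 ± 0.25, p = 0.0467 and adjusted p = 0.204 by DESeq2 in the authors' deposited table). The 31 peaks that were not called ran from -0.68 to 0.42 in the authors' deposited table.

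Col16a1 codes for the chain of collagen XVI, which associates with fibrils in skin and cartilage and binds integrins. The peak over its start, at chromosome 4, 130044970 to 130048770, reached 0.91 ± 0.26 (SE, p = 5.14e-04 by DESeq2) in the authors' deposited table, 1.88-fold higher in resistant organoids, at a mean count of 67.6. A peak 9.5 kb upstream, over an exon of the long non-coding RNA gene Gm12963, was higher too, by 0.76 ± 0.25 (SE) with an adjusted p of 0.0262 in the authors' deposited table. The start peak of Col16a1 also overlaps Gm12963, so its signal cannot be assigned to Col16a1 alone. The 2 called peaks adjoin at a distance of 6.6 kb, and an uncalled peak between them was at 0.39 ± 0.40 in the authors' deposited table. No other Col16a1 peak was called. The peak just downstream of the start was at 0.29 ± 0.26, and the peak with the highest mean count (81.6), at an internal transcript start 25.4 kb into the gene, was at -0.20 ± 0.21, with a 95% interval of -0.61 to 0.21, in the authors' deposited table. Whether the start peak and this internal peak differ from each other was not tested.

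**Figure D3:**
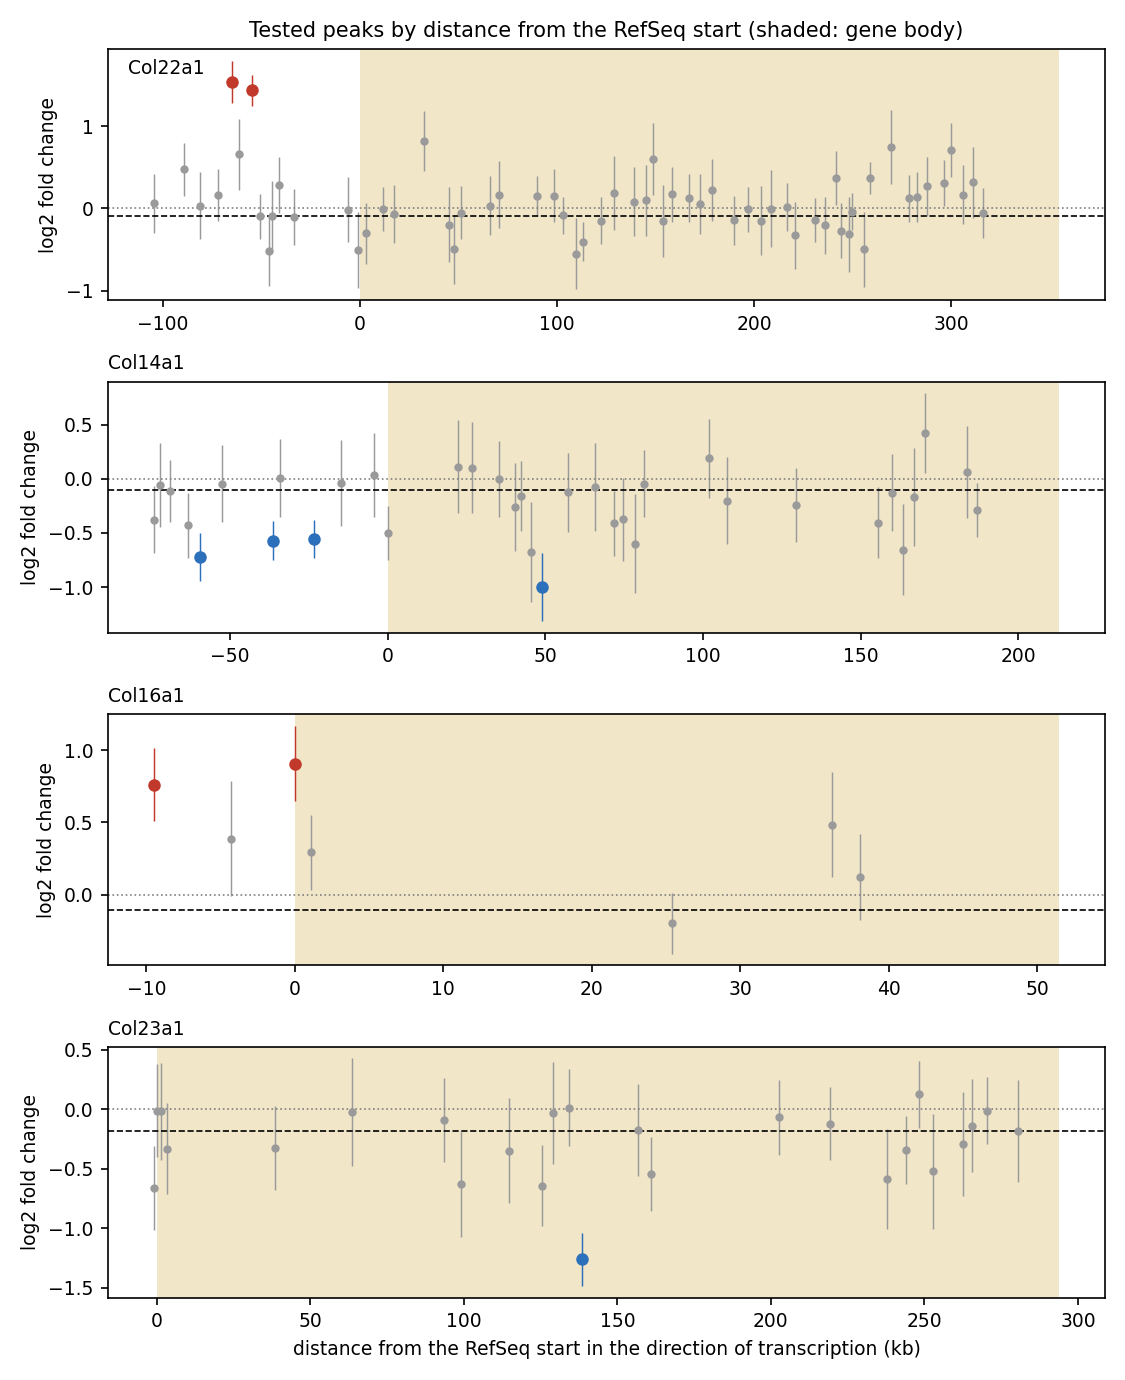
Log2 fold change (bars SE) of each tested peak of Col22a1, Col14a1, Col16a1 and Col23a1 against its distance in kb from the RefSeq start, in the direction of transcription, with the gene body shaded, called peaks in red (higher) or blue (lower) and the median of the 5 Mb window dashed. The called Col22a1 peaks and 3 of the 4 called Col14a1 peaks lie to the left of the gene body, and the called Col23a1 peak stands alone in it.

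Col12a1 codes for the chain of collagen XII, a FACIT of dense connective tissue. Both of its tested peaks had positive values. The called peak, at chromosome 9, 79608490 to 79610770, is 110.4 kb into the gene and within 3 kb of an internal transcript start. It had a low mean count of 23.8 and a log2 fold change of 1.06 ± 0.38 (SE), with an adjusted p of 0.0461 in the authors' deposited table, the weakest call of the 12. The peak near the RefSeq start had a mean count of 40.1 and was not called, as given above. Of the 4 untested Col12a1 peaks, 2 had an unadjusted p under 0.05, at 1.63 ± 0.63 (mean count 8.83) and 1.33 ± 0.59 (mean count 9.57) in the authors' deposited table.

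Col19a1, which codes for the chain of collagen XIX, a rare component of basement membrane zones, had 1 tested peak of 9. That peak, at chromosome 1, 24611760 to 24615750, lies 23.8 kb upstream of the RefSeq start over the predicted pseudogenes Gm10222 and Gm10925. Its log2 fold change was 1.13 ± 0.37 (SE), with an adjusted p of 0.0228 in the authors' deposited table, at a mean count of 24.3 and 6.09 counts per kb, the lowest per kb of the 12 called peaks. This stretch of mm10 is known as a nuclear copy of mitochondrial DNA, so reads from the mitochondrial genome could be placed there and the call is uncertain. How such reads were treated is not stated in these sources. The peak nearest the RefSeq start was untested and stood at 0.05 ± 0.51 in the authors' deposited table.

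The network collagens gave 1 call in 10 tested peaks, where 12.4% of all tested peaks were called. Col8a2, which with Col8a1 codes for collagen VIII, had a higher peak at chromosome 4, 126299070 to 126303130, over the start of an internal transcript 12.3 kb into the gene. Its mean count was 80.0 and its log2 fold change 0.65 ± 0.23 (SE, adjusted p = 0.0380 by DESeq2) in the authors' deposited table, 1.57-fold higher. The other 4 tested Col8a2 peaks ran from -0.30 to 0.30 in the authors' deposited table, and the peak nearest the RefSeq start, 1.3 kb upstream, had a mean count of only 3.09.

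Col8a1 had 4 tested peaks of 19, all with values below 0 and none called. The start peak, at chromosome 16, 57754120 to 57756746, was at -0.15 ± 0.32, with a 95% interval of -0.78 to 0.48, in the authors' deposited table. An intron peak 67.5 kb into the gene was at -0.74 ± 0.33 (p = 0.0234, adjusted p = 0.129 by DESeq2) in the authors' deposited table. The tested peaks of the 5 Mb window around Col8a1 had a median of 0.60, the farthest from 0 of the windows around the 10 genes. With that median subtracted, the intron peak stood at -1.34 (adjusted p = 0.00188 in a normal test over all tested peaks) and the start peak at -0.75 (adjusted p = 0.197). Against the 20 nearest tested peaks of other genes the intron peak stood at -0.57 (adjusted p = 0.460). Over all 4806 tested peaks of chromosome 16 the median was 0.75. With this chromosome median subtracted, the intron peak stood at -1.49 (adjusted p = 2.5e-04 in the same normal test). The start peak then stood at -0.90 (adjusted p = 0.0618). The call of the intron peak therefore depends on how wide a neighbourhood is taken.

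Col10a1, the collagen X gene and a marker of hypertrophic chondrocytes, lies within an intron of Nt5dc1 and had no peak in its own gene body. Its 1 tested peak, 31.9 kb upstream in that host gene, was at -0.43 ± 0.36, and its promoter peak, 2.7 kb upstream, was untested at -0.67 ± 0.47 in the authors' deposited table. The mean counts of its 3 peaks gave 7.18 to 8.80 counts per kb.

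Of the transmembrane collagens, Col23a1 had the single call in 37 tested peaks (2.7%, against 12.4% of all tested peaks). Col23a1 codes for collagen XXIII, a membrane collagen shed by furin and studied as a marker of metastatic tumours. Its called peak, in intron 2 at chromosome 11, 51428080 to 51433320 and 138.4 kb from the start, fell by 1.26 on the log2 scale (SE 0.23, p = 2.63e-08, adjusted p = 1.87e-06 by DESeq2) in the authors' deposited table, 2.40-fold lower in resistant organoids. It had the highest mean count of the gene (78.6). The nearest tested peaks on either side, 1.7 and 13.1 kb away, were at 0.01 ± 0.32 and -0.17 ± 0.38 in the authors' deposited table. Of the 25 tested Col23a1 peaks 23 had values below 0 and 2 above, where 44.5% of all tested peaks had values above 0. The median of the gene was -0.18, the same as that of its 5 Mb window (-0.18), and that of chromosome 11 was -0.21. The start peak was at -0.01 ± 0.39 and the promoter peak with the highest mean count, 1.0 kb upstream, at -0.66 ± 0.35 (adjusted p = 0.248 by DESeq2) in the authors' deposited table.

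Col13a1 codes for collagen XIII, a transmembrane collagen of cell adhesion sites and the neuromuscular junction. None of its 12 tested peaks was called, and 0 had an unadjusted p under 0.05 in the authors' DESeq2 comparison. Their values ran from -0.38 to 0.45, 8 of them above 0, in the authors' deposited table. The peak with the highest mean count (27.8), 11.2 kb upstream, was at -0.35 ± 0.35 with a 95% interval of -1.03 to 0.33 in the authors' deposited table. Its tested peak with the smallest p, 131.3 kb into the gene, was at 0.45 ± 0.44, and its promoter peak with the highest mean count, 103.5 kb into the gene, at -0.07 ± 0.41, in the authors' deposited table. Changes inside these errors were not detectable at this precision.

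The calls differed in how far they stood from their surroundings. After the median of the surrounding 5 Mb window was subtracted, 5 of the 7 higher peaks and 1 of the 5 lower ones kept an adjusted p under 0.05. Over all tested peaks 1.9% were then higher and 3.95% lower. The 2 Col22a1 peaks stood at 1.53 and 1.63, the Col16a1 start peak at 1.01 (adjusted p = 0.00396), the peak 9.5 kb upstream of it at 0.87 (adjusted p = 0.0156), the Col19a1 peak at 1.31 (adjusted p = 0.0110) and the Col23a1 peak at -1.08 (adjusted p = 1.63e-04). The 4 Col14a1 peaks had values of -0.90 to -0.45 and adjusted p-values of 0.0639 to 0.115, and their call was lost, as was that of Col12a1 (1.09, adjusted p = 0.0651) and Col8a2 (0.62, adjusted p = 0.0932). Since each subtraction re-ranks all peaks of the table, a lost call can come with a nearly unchanged value, as at Col12a1.

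**Figure D4:**
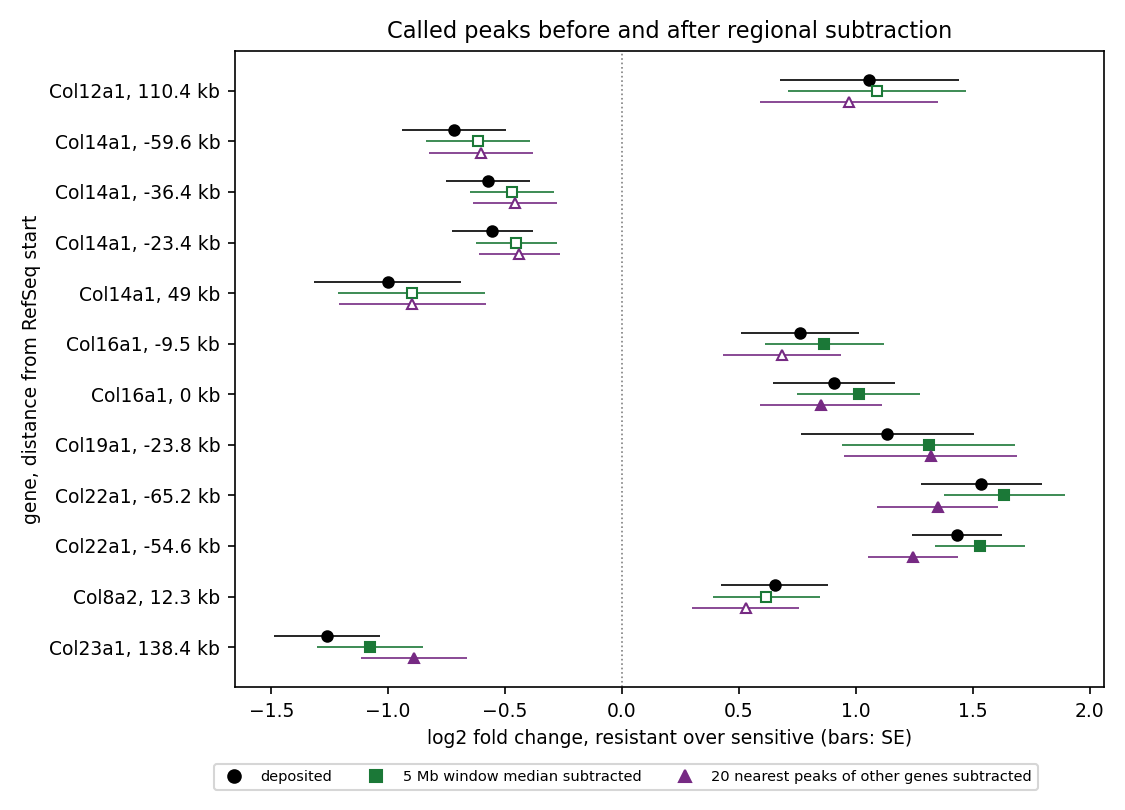
Log2 fold change (bars SE) of the 12 called peaks as deposited (circles), after subtraction of the median of the 5 Mb window (squares) and of the 20 nearest peaks of other genes (triangles), with filled symbols for an adjusted p under 0.05. The 2 Col22a1 peaks, the Col16a1 start peak, the Col19a1 peak and the Col23a1 peak are filled in all 3 settings.

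Among the 34 other collagen chain genes, calls at promoters were in the higher direction. Of 26 with a tested promoter, represented by the peak with the highest mean count, the authors' deposited table had 9 higher and 0 lower at a median of 0.26, while the 8 tested genes described above gave 1 higher and 0 lower and a median of -0.17. Over all 15490 genes with a tested promoter, 555 were higher (3.58%) and 2151 lower (13.9%), with a median of -0.18. At an unadjusted p under 0.05, 2 of the 26 were lower. The called genes were the fibril-forming chains Col5a1 (1.38 ± 0.22), Col1a2 (1.53 ± 0.46), Col5a3 (1.21 ± 0.32), Col11a1 (1.18 ± 0.28) and Col3a1 (0.97 ± 0.29), the collagen VI chains Col6a3 (1.31 ± 0.24), Col6a2 (1.17 ± 0.35) and Col6a1 (0.89 ± 0.23), and the anchoring fibril chain Col7a1 (0.77 ± 0.26), all from the authors' deposited table. After subtraction of the 5 Mb window median 7 of the 9 kept their call, without Col1a2 (1.32, adjusted p = 0.0680) and Col7a1 (0.75, adjusted p = 0.0658). With peaks of any class, 35 of 310 tested peaks of these 34 genes were higher (11.3%) and 9 lower (2.9%) there, against 5.02% and 7.34% of all tested peaks. The difference between the 2 sets of collagens was not tested. Their closest relatives by class gave no promoter call in 5 tested genes. In the authors' deposited table the FACIT chains Col9a2, Col9a3 and Col20a1 were at 0.68 ± 0.32, -0.25 ± 0.38 and -0.17 ± 0.27, and the transmembrane chains Col17a1 and Col25a1 at 0.21 ± 0.29 and 0.66 ± 0.26. Of these, 2 had an unadjusted p under 0.05, both higher. Away from promoters, the most significant peaks were at Col6a3 (1.44 ± 0.25) and Col3a1 (1.81 ± 0.32), higher, and at Col18a1 (-1.24 ± 0.25) and Col15a1 (-1.01 ± 0.23), lower, in the authors' deposited table. The Col6a3 and Col3a1 peaks are intergenic, at 32095 and -268008 bp from the annotated start (negative is upstream).

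Genes that fold, process or bind these chains were also mixed. Of 25 such genes 22 had a tested promoter, and the authors' deposited table called 4 of them higher and 2 lower, beside the 3.58% and 13.9% of all genes. The higher ones were Serpinh1, the collagen chaperone HSP47 (0.63 ± 0.19), Plod1, a lysyl hydroxylase (1.06 ± 0.29), Ddr2, a collagen receptor kinase (0.59 ± 0.19), and Mef2c, a regulator of Col10a1 in chondrocytes (1.32 ± 0.36) in the authors' deposited table. Lower were Ddr1, the related receptor of epithelial cells (-0.94 ± 0.19), and Itga2, a collagen-binding integrin subunit (-0.81 ± 0.20), in the authors' deposited table, and the call of Ddr1 was lost on subtraction of its 5 Mb window (-0.44, adjusted p = 0.188). The promoters of Furin, the protease that sheds transmembrane collagens (-0.34 ± 0.17), and of Runx2, the other main regulator of Col10a1 (-0.06 ± 0.17), were not called in the authors' deposited table. Among the peaks outside promoters, those with the smallest p-values were at Serpinh1 (1.41 ± 0.29) and Plod2 (1.41 ± 0.34), higher, and at Itga1 (-2.04 ± 0.29) and Runx2 (-1.18 ± 0.31), lower, in the authors' deposited table. The Serpinh1 and Itga1 peaks are intergenic, at -5531 and -243116 bp from the annotated start (negative is upstream). The Runx2 peak stood at -0.66 (adjusted p = 0.277) after subtraction of its 5 Mb window and was then not called.

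Of the marker lists, the epithelial one was called throughout. All 8 epithelial lung tumour markers had a lower strongest promoter peak in resistant organoids, from -2.19 to -0.93 with a median of -1.34 in the authors' deposited table and at mean counts of 87.2 to 785. Of 7 tested fibroblast markers 2 were higher (Fap, 1.35 ± 0.36, and Pdgfrb, 1.64 ± 0.36) and 0 lower there, while Col1a1 was at -0.01 ± 0.26 and Lum had no tested promoter. Of the smooth muscle markers 1 of 5 was higher (Myh11, 0.68 ± 0.21), and of the cartilage markers 1 of 5 (Comp, 0.57 ± 0.17), in the authors' deposited table. Of 4 tested endothelial markers 0 were called by DESeq2. The 1 with an unadjusted p under 0.05, Kdr, had a lower value in resistant organoids (-0.70 ± 0.33). After subtraction of the 5 Mb window median, Myh11, on chromosome 16, stood at 0.0027 and Comp at 0.23 (adjusted p = 0.678), and neither was called. The part of these shifts in the collagen values was not tested.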

How the data were processed

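Nuclei of the 6 libraries were treated with a commercial transposase, and the libraries were sequenced in read pairs, per the labels' protocols. The submitters' processing notes name DESeq2 1.26.0, featureCounts, Bowtie2 2.2.1, ChIPseeker 1.22.1, GATK 4.1.3, R 3.6.1, deepTools, SAMtools 1.8 and the build mm10. The peak caller, the treatment of duplicates and mitochondrial reads, and any shift of cut sites are not stated in these sources.

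The authors deposited 1 table. Per the file headers it holds the mean normalized count (a signal), the Wald statistic (a score), raw and adjusted p-values of DESeq2, and the log2 fold change with its error, also log2. The authors also deposited peak width and distance to the nearest transcript start. The 6 columns of values per library match no label and were not used, so no model was refitted.

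Peaks were taken by gene symbol. Positions relative to genes come from RefSeq (GRCm38.p6), where all 10 genes were found. Counts per kb are mean counts divided by width. For each of 11 alternatives the calls were recomputed. In the subtractions the deposited errors were kept, a normal test was applied, and p-values were adjusted over all 102173 tested peaks (Benjamini-Hochberg). The subtracted medians were those of the 5 Mb window (of the chromosome in windows with under 20 tested peaks), of the 20 nearest peaks of other genes, of the chromosome, of a running 2001 peaks ranked by mean count, or of window and trend together. The error of the median was not added. The window, chromosome and nearest-peak subtractions were run on simulated data with constant shifts of whole chromosomes. Shifts within a chromosome were not simulated, and the settings that subtract the trend were not run on such data. The tools were SciPy 1.17.1, NumPy 2.4.6, pandas 2.3.3 and matplotlib 3.10.9 in Python 3.11.15.

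Every collagen gene here is named, with its promoter peak of highest mean count, its called peaks, its peak of highest mean count and its tested peak of smallest p. Of other lists, all genes with a called promoter and up to 2 other called peaks each way were named. Further peaks (neighbours of called peaks, untested Col12a1 peaks, Furin and the uncalled Runx2 promoter) were chosen after their values were seen. A further marker list is not reported here. The genes and lists were chosen with earlier results of these data known.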

Additional observations from a re-analysis of the deposited data

How the results depend on the processing

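The 7 higher and 5 lower peaks of these collagens varied with the settings. The higher count was 4 with the 20 nearest peaks subtracted, 4 with no filter on low counts, 3 at an adjusted p under 0.01 and 4 with at least a 2-fold change. Of all peaks in these settings, 1.87%, 2.03%, 2.93% and 3.65% were higher in that order, against 5.02% as deposited. The lower count was 2 after the 5 Mb window, the mean count trend or both were subtracted, 1 with the 20 nearest peaks, 2 among peaks up to 5 kb wide, 1 at an adjusted p under 0.01 and 2 with at least a 2-fold change. The lower shares of all peaks were 3.95%, 4.71%, 3.06%, 3.82%, 5.0%, 4.66% and 3.45% in that order, against 7.34% as deposited. After subtraction of the window, alone or with the trend, the 2 lower peaks were the called Col23a1 peak and, as a new call, the Col8a1 intron peak. The count of genes called by their strongest promoter, 1 as deposited, was 0 after subtraction of the window or of the 20 nearest peaks, with no filter, at an adjusted p under 0.01 and with at least a 2-fold change, 2 after subtraction of the trend (Col12a1 added, 0.84, adjusted p = 0.0496) and 3 at an unadjusted p under 0.05. With a minimum mean count of 50, 3 of 10 other collagen promoters were higher, against 9 of 26 as deposited. At that minimum, 2 of 14 partner promoters were higher and 3 lower, against 4 and 2 of 22 as deposited. Of all peaks of any class with that minimum, 8.34% were higher and 26.1% lower. Lower partner promoters numbered 1 of 22 after the window was subtracted and 1 of 18 among peaks up to 5 kb wide. The signs of 3 uncalled peaks turned: the Col13a1 peak 103.5 kb into the gene (-0.07) was at 0.0165 after window, 0.0984 after nearest peak and 0.0982 after chromosome subtraction, the Col8a1 start peak at 0.0171 after nearest peak subtraction, and the Col16a1 peak at 25.4 kb at 0.0205 after trend and 0.0182 after window and trend subtraction. The cause was not tested. Both Col22a1 peaks, the Col16a1 start peak and the called Col19a1 and Col23a1 peaks kept their call under each of the 5 subtractions. No paired analysis was possible because the columns per library match no labelled sample, and for the same reason no library could be left out. The limits are the unknown depth per library, the errors of 0.17 to 0.48, and the direction, which would turn throughout if the title of the deposited table had the reverse order.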

Other observations

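Gene symbols did not cover all the chromatin of these genes. In the authors' deposited table, 20 further peaks inside the RefSeq bodies of the 10 genes carry the symbol of a neighbour, 8 of them tested and 1 called. The called one, at chromosome 11, 51581420 to 51589330, overlaps the 3′ end of Col23a1 and the promoter of Phykpl, a lysine metabolism gene, and was lower in resistant organoids, by -0.58 ± 0.18 (SE, adjusted p = 0.0158 by DESeq2, mean count 183) in the authors' deposited table. The other tested ones ran from -0.76 to 0.31 in the authors' deposited table. By symbol, 6 in Col19a1 carry the symbol Col9a1, the gene of a FACIT chain of cartilage, and 5 in Col8a1 carry Cmss1.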
